A study of Mus musculus with 7 samples.

Results

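Cohesin is the ring-shaped protein complex that holds sister chromatids together and folds chromatin into loops. The ring is made of an SMC1 and an SMC3 protein closed by a kleisin subunit, and a STAG subunit binds the kleisin. In meiosis, germ cells add paralogues of 3 of these parts to the general ones, and oocytes rely through their long arrest before ovulation on cohesion set up in the fetal ovary. The 9 cohesin subunit genes examined here were chosen by name, and each was found once among the 31053 genes of the count matrices. The 4 meiotic members are the kleisins Rec8 and Rad21l, the SMC1 paralogue Smc1b and the STAG paralogue Stag3. The 5 general members are the kleisin Rad21, the SMC1 subunit Smc1a, the STAG subunits Stag1 and Stag2, and Smc3, which has no meiotic paralogue and serves in both kinds of ring.

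The data are 10x Genomics single-cell RNA counts of untreated wild-type C57BL/6J mouse gonads at E11.5 and ovaries at E12.5 and E14.5, then at E16.5 and E18.5 and after birth at P1 and P5, where E is the embryonic day and P the day after birth. Each age is 1 library of cells pooled from several gonads, so differences between animals cannot be seen and the age and the library cannot be told apart. The time of trypsin dissociation also rose with age. Of 52542 called cells, 50823 had at least 200 genes and were kept. A cell was taken as a germ cell when the unique molecular identifiers (UMIs) of Dazl and Ddx4, RNA-binding proteins of the germline, summed to at least 3, and as a somatic cell when neither had any. This gave 4760 germ cells and 42958 somatic cells, and the 3105 cells with 1 or 2 such UMIs stayed out of both. In the order of the ages the germ cells numbered 9, 321, 2669, 1016, 439, 244 and 62. E11.5 therefore rests on 224654 UMIs of 9 cells and gives wide intervals. The cells left out numbered 68, 156, 1181, 980, 334, 289 and 97. From E14.5 on their median per library was 5538 to 7579 UMIs, against 12107 to 60954 in germ cells. The part of shallow germ cells among them was not tested. In the gated cells Dazl was 4.64-fold and Ddx4 1.79-fold higher at E12.5 than at E11.5. Whether the gate missed germ cells at E11.5 was not tested. Of 7 further germline markers, 5 were detected in germ cells at E11.5, 6 at P5 and all 7 at the other ages, and in the more numerous somatic cells 6 at E11.5 and all 7 at the other ages. Their summed somatic level was 0.649 to 2.96% of that in germ cells.

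A level is a gene's UMIs summed over a class of cells per 1000000 UMIs of that class (CPM), given with its 95% exact Poisson interval in parentheses, while intervals of ratios are exact and condition on both classes' summed UMIs. A share of UMIs or cells has an exact binomial interval. All cover counting error only, and no test between ages was possible with 1 library each. A gene was called higher or lower in germ cells when the levels differed by at least 2-fold, among genes for which equal levels would give at least 5 UMIs in the smaller class. UMIs are read near the 3' end and were not divided by transcript length, so levels are compared for 1 gene between cells, and not between genes.

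The E16.5 library stood apart from the rest. Its cell barcodes were shared with each other library 0 to 3 times, against 22 to 136 times in every other pair of libraries, although the labels give 1 chemistry for all. In somatic cells 10.8% of 6281 genes lay at least 2-fold above or below both neighbouring ages at E16.5, against 0.727 to 3.01% in the other libraries with an age on each side. The general cohesin subunits were also higher in somatic cells of this library, but none lay 2-fold above both neighbouring ages. Their somatic levels at E16.5 were 1.54 to 2.29 times those at E14.5 and 1.41 to 1.83 times those at E18.5. A step into or out of E16.5 is therefore given as that library's level, while ratios of germ to somatic cells and shares among paralogues compare values within a library.

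Rec8 (ENSMUSG00000002324) lies at chr14:55618037-55625395 of GRCm38 on the plus strand, Rad21l (ENSMUSG00000074704) at chr2:151645404-151668533 on the minus strand, Smc1b (ENSMUSG00000022432) at chr15:85064689-85131964 on the minus strand and Stag3 (ENSMUSG00000036928) at chr5:138280240-138312393 on the plus strand. The 4 genes lie on 4 chromosomes. Sequence before the RefSeq start is shown for them so that the starts of the 4 meiotic members can be compared, and was read 5' to 3' on the gene's strand as far as the first base that GENCODE vM21 places in an exon. The capitals mark TCCCGC, the core of E2F sites that include those bound by the E2F6 repressor complex. The motif CACGTG, an E-box of the kind bound by MAX and MGA, and the motif CNCCTCAG, as in STRA8-bound promoters, were also searched on both strands.
Rec8, chr14:55617916-55618036, plus strand: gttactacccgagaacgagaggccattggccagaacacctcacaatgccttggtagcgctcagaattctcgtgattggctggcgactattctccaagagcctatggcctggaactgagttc
Rad21l, chr2:151668534-151668783, minus strand: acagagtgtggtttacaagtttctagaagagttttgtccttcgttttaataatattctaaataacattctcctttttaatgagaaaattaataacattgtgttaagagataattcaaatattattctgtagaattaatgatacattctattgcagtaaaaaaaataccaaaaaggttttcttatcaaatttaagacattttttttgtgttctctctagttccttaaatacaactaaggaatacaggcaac
Smc1b, chr15:85131965-85132207, minus strand: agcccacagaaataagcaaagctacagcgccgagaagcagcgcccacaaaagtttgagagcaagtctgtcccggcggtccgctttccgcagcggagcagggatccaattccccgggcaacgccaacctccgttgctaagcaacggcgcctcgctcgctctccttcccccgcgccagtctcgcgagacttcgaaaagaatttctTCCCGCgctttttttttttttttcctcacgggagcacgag

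GENCODE vM21 begins exon 1 of Rec8 129 bases ahead of the RefSeq start, and that of Stag3 before the whole window. For these genes the 30 bases around each motif found inside that exon are shown, with the motif in capitals.
Rec8, chr14:55618116-55618145, plus strand: gtgtgcacctgaTCCCGCtggagggcgaca
Stag3, chr5:138280327-138280356, plus strand: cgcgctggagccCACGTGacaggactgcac
Stag3, chr5:138280495-138280524, plus strand: tatcccgtgcctTCCCGCgtttttttctaa

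TCCCGC was present in 3 of the 4 meiotic windows of 300 bases, those of Rec8, Smc1b and Stag3, and in all 3 general windows with an entry, those of Smc1a, Stag1 and Smc3. Of all 32851 windows of that length 20% hold it. CACGTG was found in that of Stag3 alone, against 7.15% of all windows, and CNCCTCAG in none of the 7, against 7.94%. Rad21l held none of these motifs. Rad21 and Stag2 had no entry.

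The meiotic subunits Smc1b and Stag3 were called higher in germ cells at all 6 ages from E12.5 on, and Rad21l from E14.5 to E18.5, whereas Rec8 RNA was also common in somatic cells. Rec8 was called higher in germ cells at 1 age, E14.5, and lower at E16.5, E18.5, P1 and P5. In the order of the ages, 0, 3, 4, 4, 4, 3 and 3 meiotic members passed the filter on low counts, and 0, 2, 4, 3, 3, 2 and 2 were called higher in germ cells. Over all genes that passed, 6.31, 12.3, 19.8, 25.3, 22.7, 25.1 and 24.1% were called higher. The member called lower from E16.5 on was Rec8 each time, where 36.6, 33.5, 34.1 and 34.6% of all genes were. Where the filter failed, Rad21l gave no call at E12.5, P1 and P5, and at E11.5 the 9 germ cells held too few UMIs for any meiotic member. The filter was met only through the class with the higher level by Rad21l at E14.5 and E18.5, Stag3 at P5 and Rec8 at P1 and P5, so they could pass there only by differing between the classes. From thinned cells fewer were called higher, with 1 at E12.5 and also at P1, 2 at E18.5 and 0 at P5, and without germ cells that held somatic markers 1 at P5. The ratios of Smc1b and Stag3 to somatic cells from E12.5 on were then still 10.3 to 263 from thinned cells, so those calls ended at the filter.

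Rec8, the kleisin that stays on chromosomes until the meiotic divisions, had germ cell levels of 0, 22.2, 149, 7.20, 5.08, 0.658 and 0.872 CPM from E11.5 to P5. The same 7 libraries gave 7.51, 24.4, 51.1, 40.5, 29.2, 6.83 and 12.3 CPM in somatic cells. These somatic levels are pooled over kinds of cell whose numbers differed between libraries. The germ cell level was highest at E14.5, close to the pooled somatic level at E12.5 and below it from E16.5 on. At E16.5 and E18.5 it was still above the 1.45 and 1.00 CPM of somatic cells with mesenchymal markers, a group described below. At P1 and P5, on 4 and 3 germ cell UMIs, these cells had 0.440 and 1.18 CPM. At E12.5 the ratio of germ to somatic cells was 0.912 (0.770 to 1.07), at E14.5 it was 2.91 (2.77 to 3.06), and at E16.5 Rec8 was 5.62-fold lower (interval 4.84 to 6.56) in germ cells. From E18.5 to P5 the germ level was 5.74-fold lower, 10.4-fold lower and 14.1-fold lower, but on 28, 4 and 3 UMIs. The order of germ cell levels was E14.5, E12.5, E16.5, E18.5, P5, P1 and E11.5. Among neighbours in it the intervals of E16.5 and E18.5, of P5 and P1, and of P1 and E11.5 overlap. The E11.5 interval, on 0 UMIs, also takes in the E16.5, E18.5 and P5 levels, so its place below them is not resolved. In E14.5 germ cells 72.2% held a Rec8 UMI at a median of 12775 UMIs per cell, against 21.7% of somatic cells at 5704. With each cell thinned to 2000 UMIs these were 26.1% and 9.17%, leaving out 77 germ and 690 somatic cells that were shallower. Levels from thinned cells ended the call at P5, with a ratio of 0.710.

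Somatic marker RNA was also counted in the late germ cells, and how much of their Rec8 came with it was not tested. Markers of supporting cells (Kitl, Wnt6, Foxl2 and Fst) summed in germ cells to 2.18, 5.07, 9.61, 10.2, 6.13 and 1.77% of their somatic level from E12.5 to P5, and to 0 at E11.5. Germ cells with at least 3 UMIs of a somatic marker list made up 22.8% at E16.5 and 10.9% at E18.5, and after birth 21.7% at P1 and 38.7% at P5. At E16.5 without them Rec8 was at 4.09 CPM in place of 7.20. In the later libraries, from E18.5 on, it was then 3.58, 0 and 1.65 CPM, and so stayed below the pooled somatic level at each of these ages. The E14.5 level did not depend on such cells, which made up 10.0% there, and was 152 CPM without them.

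Rad21l, the second meiotic kleisin, was at 0, 0.135, 2.31, 67.5, 9.99, 5.76 and 1.16 CPM in germ cells in the order of the ages. Somatic cells had 0, 0, 0.0914, 0.614, 0.0426, 0.0704 and 0.0232 CPM. Neither Rad21l nor Rec8 had a germ cell UMI at E11.5. At E12.5 Rad21l had 1 UMI in germ cells against 165 of Rec8, and it had 84 at E14.5 and 1707 at E16.5. Its level was lower at E18.5 than in the E16.5 library. The ratio of germ to somatic cells was 25.2 (9.50 to 94.8) at E14.5 and 109.9 (84.3 to 146) at E16.5. At E18.5 it was 235 (40.4 to 9431) on a single somatic UMI. Cells with a Rad21l UMI made up 2.85% of germ cells at E14.5, 56.9% at E16.5 and 10.3% at E18.5, and 0.615% of somatic cells at E16.5. After thinning the germ shares were 0.579% at E14.5 and 2.31% at E18.5, with 111 of 969 cells at E16.5. The levels at E18.5 and P1 overlap in their intervals, as do those at E14.5 and P5.

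Smc1b, the meiotic SMC1 paralogue, separated germ from somatic cells more than 90-fold in each library from E12.5 on. At E11.5 the ratio was 95.1, on 10 germ cell UMIs, which were too few for a call. Germ cell levels of Smc1b were 44.5, 361, 1093, 3899.9, 1741, 1908 and 1188 CPM, against 0.468, 2.05, 11.8, 25.7, 9.92, 8.68 and 4.45 CPM in somatic cells. It was present in germ cells before meiosis, with 10 UMIs in 6 of the 9 cells at E11.5 and 96.6% of cells at E12.5, and it was still high at P5. From E12.5 to E14.5 the germ level was 3.03-fold (2.92 to 3.15) higher, and no neighbours in the order of ages (E16.5, P1, E18.5, P5, E14.5, E12.5, E11.5) had overlapping intervals. The ratios of germ to somatic cells from E12.5 on were 176, 92.4, 152, 176, 219.8 and 267. A germ cell held a mean of 14.9 Smc1b UMIs at E14.5 and 65.9 at P5, where the cells were also deeper. Among single E14.5 germ cells the level ran from 356 CPM at the 10th percentile to 2442 at the 90th.

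Stag3, the STAG subunit of meiotic rings, had germ cell levels of 35.6, 48.9, 98.2, 379, 56.8, 40.0 and 12.8 CPM and somatic levels of 0.849, 1.08, 2.65, 4.74, 1.79, 1.34 and 1.34 CPM. It was thus in germ cells from E11.5 like Smc1b, but it was at its lowest at P5, when Smc1b was still at 1188 CPM. The ratio of germ to somatic cells was 45.5 (33.9 to 62.3) at E12.5, 80.0 (72.7 to 88.3) at E16.5 and 9.52 (6.28 to 14.3) at P5. From P1 to P5 the germ level was 3.13-fold (2.26 to 4.42) lower, on 44 UMIs of 62 cells. A germ cell held a mean of 0.996 Stag3 UMIs at P1 and 0.710 at P5, where the median depth was 60954 UMIs against 20902. Among neighbours in the order of ages the intervals of E18.5 and E12.5, of E12.5 and P1, of P1 and E11.5, and of E11.5 and P5 overlap. The E11.5 interval, on 8 germ cell UMIs, also takes in the E12.5 and E18.5 levels.

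**Figure D1:**
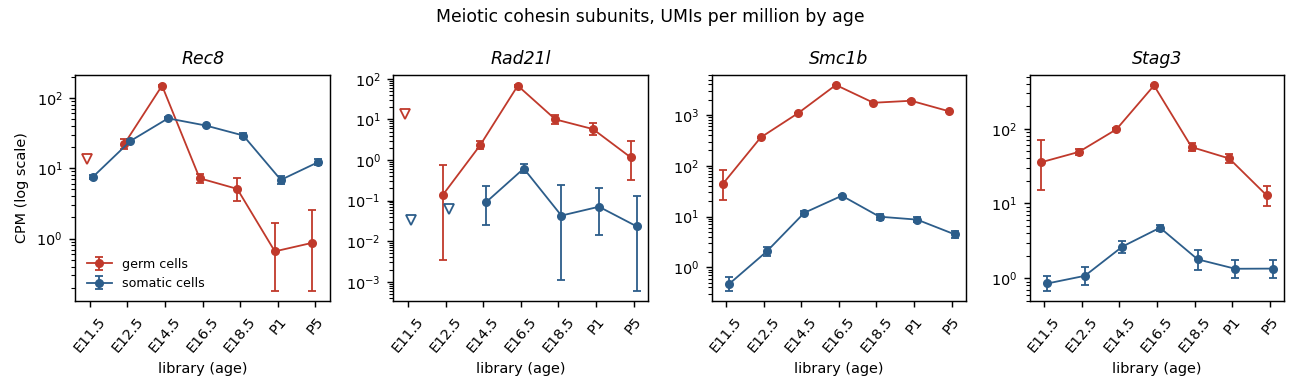
Levels of the 4 meiotic subunits (CPM, log scale, a scale for each gene) against library age, in germ cells (red) and somatic cells (blue). Points are sums over all cells of a class, bars are 95% exact Poisson intervals, and open triangles stand at the 3-UMI limit where no UMI was found. The Rec8 lines cross, with germ cells above at E14.5 and below from E16.5 on, while Smc1b and Stag3 stay above in germ cells throughout.

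Rec8 was much higher in somatic cells with supporting markers than in those with mesenchymal markers, while Smc1b was less than 2-fold apart between them from E12.5 on. Somatic cells were grouped by at least 3 UMIs of exactly 1 marker list, which is a range of marker counts and not a cluster. In cells with supporting markers Rec8 was at 19.7, 58.4, 75.8, 81.1, 54.5, 18.0 and 20.3 CPM from E11.5 to P5. Such cells numbered 191, 1237, 3931, 2490, 1229, 1318 and 1871 of 8179, 4228, 7210, 8774, 3075, 5501 and 5991 somatic cells. The pooled somatic level of Rec8 therefore depends on their number in each library. Cells with mesenchymal markers (Col1a1, Col1a2, Nr2f2 and Pdgfra) had 6.35, 2.60, 4.43, 1.45, 1.00, 0.440 and 1.18 CPM. The supporting-marker cells were higher at every age, by 3.11-fold (2.15 to 4.38) at E11.5, 22.5-fold (15.9 to 32.8) at E12.5, 55.9-fold (38.1 to 85.8) at E16.5 and 17.2-fold (10.1 to 31.9) at P5. In the same comparison Smc1b ratios were 0.915, 0.704, 0.759, 1.35, 1.03 and 0.621 from E12.5 on, and at E12.5 the Smc1b levels were 2.16 and 2.36 CPM. Germ cells of that library had 361 CPM. Smc1b did vary over other classes, and at P5 it was 0.415 (0.0105 to 2.31) CPM in cells with erythroid markers against 5.71 (4.43 to 7.24) with mesenchymal markers. Beside the low summed germ markers in somatic cells given above, the part of free germ cell RNA in the low somatic counts of Smc1b, Stag3 and Rad21l was not tested.

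The Rec8 level of supporting-marker cells was also taken without the cells in which a germ marker was counted. With every cell left out that held a UMI of any of the 7 germ markers, Rec8 in the supporting-marker cells was 20.1, 59.0, 76.3, 79.5, 57.3, 18.0 and 20.5 CPM in the order of the ages. These values lie within the intervals of the full class at all 7 ages. The cells kept are most of that class, with 1794 of 2490 at E16.5 and 1718 of 1871 at P5, so the values could differ little. The cells left out were not compared with those kept. A cell without such a UMI can still hold germ cell RNA, and the part of that RNA in the Rec8 level was not tested. Supporting-marker cells with at least 2 UMIs of Gng13, a G-protein subunit gene used as a marker of one pregranulosa population, had between 1.29 and 1.74 times (95% interval) the Rec8 level of those with none at E12.5. From E14.5 to P5 the ratio was 0.976 (0.872 to 1.09), 1.51 (1.38 to 1.65), 1.44 (1.16 to 1.79), 2.13 (1.54 to 2.94) and 3.67 (2.84 to 4.73), in the order of the ages. Rec8 was thus higher in the Gng13 cells from E12.5 on except at E14.5, where the interval includes 1. Cells with epithelial markers (Upk3b, Krt19, Upk1b and Lrrn4) had Rec8 at 16.1 (9.52 to 25.4) CPM at E11.5, above the mesenchymal level, and 25.8 (12.9 to 46.2) CPM at E14.5, above the mesenchymal and below the supporting level. At the other ages 9 to 48 such cells held 1 to 6 Rec8 UMIs, with intervals above the mesenchymal one except at E18.5. The gene Ipo4 lies 4 bases beyond the end of Rec8 on the opposite strand. Its somatic levels were 23.2, 26.1, 19.5, 24.0, 21.9, 12.4 and 22.0 CPM, and whether its reads enter the Rec8 counts was not tested.

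**Figure D2:**
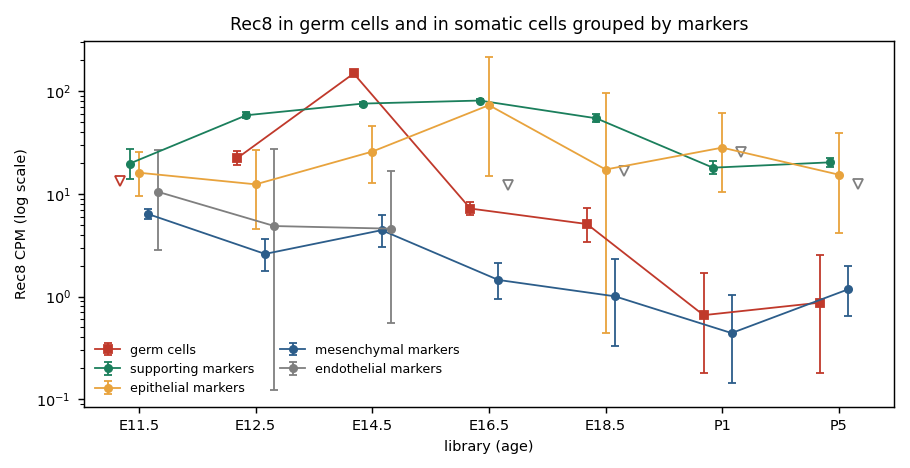
Rec8 level in CPM (log scale) against library age in germ cells (red squares) and in somatic cells grouped by marker counts (coloured circles), with 95% exact Poisson intervals and open triangles at the 3-UMI limit where no UMI was found. Cells with supporting markers lie above cells with mesenchymal markers at all 7 ages, and germ cells lie above both at E14.5 alone.

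The general subunits were found in both germ and somatic cells, and Stag2 was the one member called lower in germ cells in every library. At E11.5 that call rests on few germ UMIs. With other settings it was lost at E11.5, E16.5 and E18.5, as given below. The share of all genes called lower in every library was not counted. All 5 passed the filter in all 7 libraries. In the order of the ages 0, 2, 1, 0, 0, 0 and 0 were called higher in germ cells, beside the 6.31, 12.3, 19.8, 25.3, 22.7, 25.1 and 24.1% of all genes given above, and 1, 1, 1, 2, 2, 1 and 2 were called lower, where 30.4, 41.2, 36.2, 36.6, 33.5, 34.1 and 34.6% of all genes were. Those called higher were Rad21 and Smc3 at E12.5 and Smc3 at E14.5. The calls of lower were Stag2 throughout, Rad21 at E16.5 and E18.5, and Stag1 at P5. The median log2 ratio of the 5 was 0.92 at E12.5 and -0.81 at P5, while that of all genes was -0.59 and -0.18.

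Rad21, the kleisin of mitotic rings, had germ cell levels of 151, 177, 77.7, 38.2, 30.9, 75.5 and 49.7 CPM and somatic levels of 123, 81.7, 65.5, 113, 79.9, 100.3 and 82.5 CPM. It was 2.17 (2.04 to 2.31) times as high in germ cells at E12.5, 1.19 (1.13 to 1.25) times at E14.5, and 2.95-fold lower (interval 2.77 to 3.16) at E16.5. At E18.5 it was 2.59-fold lower (interval 2.21 to 3.05), and at P1 and P5 the ratios were 0.753 (0.682 to 0.829) and 0.603 (0.514 to 0.703), under the 2-fold call. The E12.5 ratio was 1.98 with a germ gate of 1 UMI, and the E18.5 ratio 0.581 with that gate and 0.522 from thinned cells, which ends both calls. The germ level therefore had its low point at E16.5 and E18.5, whose intervals overlap, between higher levels before and after. Ccnb1, the mitotic cyclin B1, also had its lowest germ cell levels at these ages, with 303, 180.1, 119.6, 12.3, 36.9, 57.1 and 84.3 CPM. Top2a, a topoisomerase of dividing cells, did not, with 507, 514, 333, 614, 113, 44.8 and 24.7 CPM. Nor did the division genes Mki67 and Cdk1 share both low ages. In germ cells of the E16.5 library Mki67 was at 10.3 times its E14.5 level, and at E18.5 it was 11.3-fold lower than at E16.5. Cdk1 was at 0.621 times its E14.5 level at E16.5, but at E18.5 at 2.22 times its E16.5 level.

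Smc3, the shared SMC subunit, had germ cell levels of 316, 698, 472, 439, 166, 212 and 101 CPM and somatic levels of 223, 247, 153, 235, 156, 228 and 176 CPM. The germ level was highest at E12.5, 2.83 (2.74 to 2.92) times the somatic level, and the ratio was 3.09 (3.01 to 3.18) at E14.5, 1.87 (1.83 to 1.91) at E16.5 and 0.572 (0.512 to 0.637) at P5. In the E18.5 library it was 1.07 (0.994 to 1.15). Germ cells thus held more Smc3 than somatic cells at E14.5, when Rad21 was close to equal. No neighbouring ages in its germ order overlap.

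Smc1a, the SMC1 subunit of general rings, was less than 2-fold apart between the classes at every age. Its germ levels were 174, 276, 115, 203, 110.0, 108 and 115 CPM and its somatic levels 167, 225, 109, 207, 113, 151 and 159 CPM. Ratios ran from 0.716 (0.660 to 0.776) at P1 to 1.23 (1.17 to 1.29) at E12.5, and none was called.

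Stag1 had germ levels of 107, 162, 121, 155, 79.2, 54.8 and 25.3 CPM and somatic levels of 68.5, 85.7, 73.0, 118, 73.5, 61.2 and 72.5 CPM, while Stag2, its alternative in general rings, had 17.8, 10.5, 14.2, 44.6, 24.9, 13.8 and 7.56 CPM in germ cells and 47.6, 60.0, 47.6, 109, 63.5, 53.8 and 48.7 CPM in somatic cells. Stag1 was above its somatic level at E12.5 by 1.89 (1.77 to 2.02) times and 2.87-fold lower (interval 2.32 to 3.59) at P5. Stag2 was 5.71-fold lower (interval 4.56 to 7.24) in germ cells at E12.5, 3.36-fold lower (interval 3.05 to 3.71) at E14.5 and 6.44-fold lower (interval 4.38 to 9.89) at P5, and 2.44-fold lower (interval 2.30 to 2.60) at E16.5. At E11.5 the call rests on 4 germ UMIs, with the filter met only through somatic cells, and it was lost with a germ gate of 1 UMI (ratio 0.679) or 10 UMIs (0.768). With a gate of 1 UMI it was also lost at E16.5 (0.574) and E18.5 (0.613), and from thinned cells at E18.5 (0.605). Both classes had their highest Stag2 level in the E16.5 library. Stag2 and Smc1a are both on the X chromosome, whose genes had a median germ to somatic fold of 0.593, 0.554, 0.985, 1.01, 0.955, 0.839 and 0.680 in the order of the ages, and autosomal genes 0.766, 0.670, 0.802, 0.864, 0.936, 0.957 and 0.890. GENCODE vM21 places 3 other genes on the same strand within Stag1, which could share its reads.

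**Figure D3:**
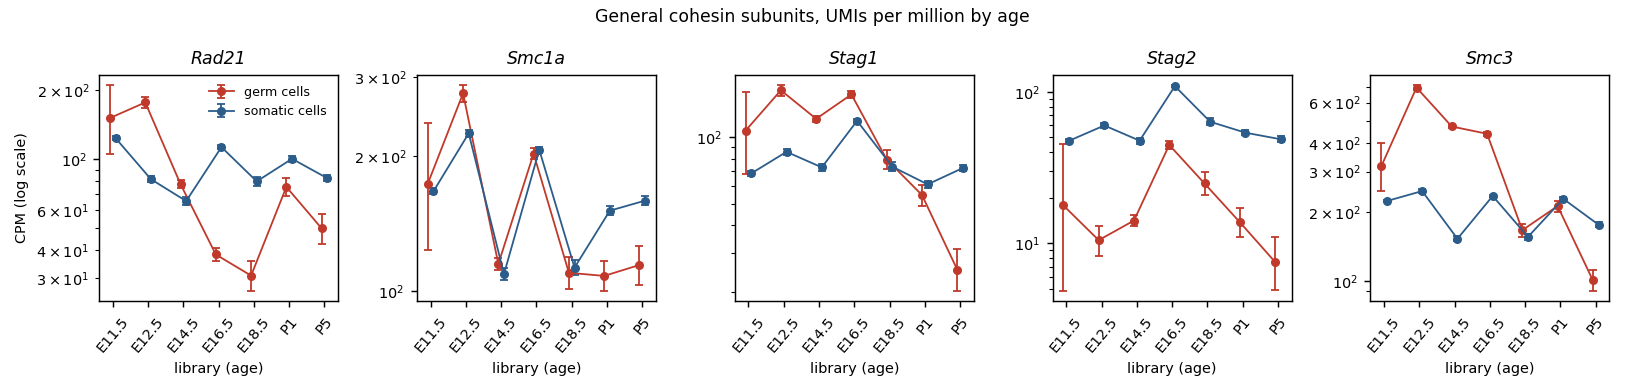
Levels of the 5 general subunits in CPM (log scale, a scale for each gene) against library age in germ cells (red) and somatic cells (blue), as sums over the cells of a class with 95% exact Poisson intervals. Germ cells lie below somatic cells at every age for Stag2, and cross from above to below for Rad21, Smc1a, Stag1 and Smc3. Smc1a stays less than 2-fold apart throughout. All 5 somatic lines peak at E16.5 relative to E14.5 and E18.5, in the library that stands apart.

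Shares within a paralogue set put each meiotic subunit beside the general one whose place it takes. Across all 9 members, meiotic genes held 9.47, 24.6, 62.7, 83.2, 81.5, 80.8 and 80.2% of cohesin UMIs in germ cells in the order of the ages, and 1.38, 3.79, 12.8, 8.38, 7.77, 2.77 and 3.25% in somatic cells. At E12.5 the germ share was 24.6% (23.9 to 25.3). It was 62.7% (62.3 to 63.0) in the E14.5 library and 80.2% (79.1 to 81.2) to 83.2% (83.0 to 83.4) from E16.5 on, or 73.9 to 79.7% with a germ gate of 1 UMI. Such a share follows the UMIs counted, and compares cells and ages without saying which gene had more transcripts. Summed with Rec8, the meiotic members were 9.07 to 116-fold higher in germ cells, and without it 60.8 to 207-fold. The lowest value of each was at E11.5, on 18 germ cell UMIs. Smc1b held most of the meiotic UMIs in germ cells from E12.5 on, with 98622 of 110095 at E16.5 and 4088 of 4139 at P5. These sums and the meiotic part of the share across all 9 members therefore mainly follow Smc1b. Smc3, which serves in both kinds of ring, is counted in the general part of that share.

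The sets differed in when the meiotic share was highest. Smc1b held 20.4, 56.7, 90.5, 95.1, 94.1, 94.6 and 91.2% of SMC1 UMIs in germ cells. In the kleisin set, Rec8 and Rad21l together held 0, 11.2, 66.1, 66.2, 32.8, 7.83 and 3.93%, and the E14.5 and E16.5 shares overlap in their intervals. At P1 the somatic share was 6.43% (5.74 to 7.18), which overlaps that of germ cells, and at P5 it was 13.0%, with an interval above that of germ cells. Stag3 held 22.2, 22.1, 42.1, 65.5, 35.3, 36.8 and 28.0% of STAG UMIs, with its highest share in the E16.5 library. Somatic shares were 0.280 to 11.1% for Smc1b and 0.726 to 2.15% for Stag3. For kleisins they reached 43.9% (42.5 to 45.3) at E14.5, and Rec8 made up 99.8% of that meiotic part.

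Which meiotic kleisin was counted changed between E14.5 and E16.5. Rec8 was 98.5% (98.1 to 98.8) of Rec8 and Rad21l UMIs in germ cells at E14.5 and 9.63% (8.34 to 11.1) at E16.5. At E12.5 it was 99.4%, with 1 UMI of Rad21l, and at E18.5 33.7% (23.7 to 44.9). At P1 it was 10.3% (2.87 to 24.2) of 39 UMIs and at P5 42.9% (9.90 to 81.6) of 7. How far the E16.5 library shifted Rec8 or Rad21l alone was not tested. Part of the late Rec8 UMIs lies in germ cells with somatic markers, as given above.

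**Figure D4:**
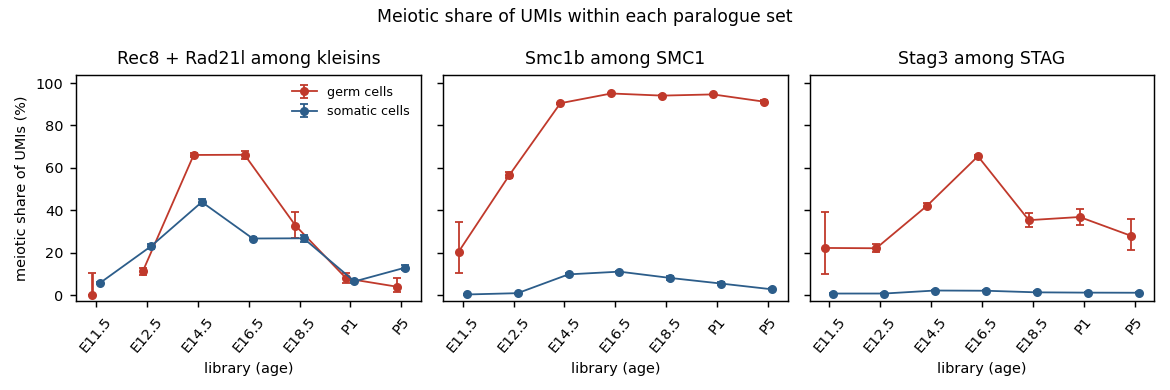
Share of UMIs in percent held by the meiotic members of each paralogue set against library age, in germ cells (red) and somatic cells (blue), with 95% exact binomial intervals. The Smc1b share is 90.5 to 95.1% in germ cells from E14.5 on, while the kleisin intervals of both classes overlap at P1 and the germ share is under the somatic share at P5.

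Germ cells of the E14.5 library were then divided within that single library by Stra8, the gatekeeper of meiotic entry, and Sycp3, a protein of the chromosome axis. Each of 2592 germ cells with at least 2000 UMIs was thinned to 2000, and at least 2 UMIs of a gene counted as high. The 4 ranges are cuts of a continuous count, with 56.6% of cells holding 1 or 2 UMIs of either gene and so lying near a cut. Cells with both genes low numbered 852, with Stra8 high alone 1098, with both high 511 and with Sycp3 high alone 131. In the counts before thinning Stra8 was at 454, 1690, 2097 and 929 CPM in these ranges, and Sycp3 at 132, 350, 1031 and 1174 CPM. Cells with Sycp3 high alone thus still held Stra8 RNA, at a higher level than cells with both low. Pou5f1, a pluripotency factor that germ cells lose as meiosis starts, was at 318, 194, 102 and 103 CPM in these ranges, in that order.

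The meiotic subunits did not follow one pattern over the ranges. Rec8 was at 89.7, 198, 177 and 107 CPM, and was 2.21-fold (2.07 to 2.36) higher in cells with Stra8 high alone than with both low, and 1.66-fold (1.40 to 1.97) lower with Sycp3 high alone than with both high. Smc1b was at 634, 1126, 1927 and 1925 CPM and Stag3 at 63.2, 102, 157 and 176 CPM, both of them higher with Sycp3 high and with intervals of the ratio between the 2 Sycp3-high ranges that include 1. Rad21l was at 0.423, 1.34, 7.12 and 10.4 CPM, 5.32-fold (3.05 to 9.58) higher with both high than with Stra8 high alone, on 41 and 20 UMIs. Rec8 RNA was thus highest in Stra8-high cells, and Rad21l RNA in Sycp3-high cells.

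Rad21 went the other way, and Smc1a did so by less. Stag1, Stag2 and Smc3 were not lower with both genes high than with both low. Rad21 was at 126, 55.7, 25.0 and 37.5 CPM, 2.26-fold (2.08 to 2.46) lower with Stra8 high alone than with both low, and 2.23-fold (1.87 to 2.68) lower again with both high. Smc1a was at 136, 114, 76.0 and 77.0 CPM, Stag1 at 119, 117, 133 and 129 CPM and Stag2 at 11.8, 16.7, 13.2 and 14.6 CPM. Smc3 was at 453, 448, 567 and 524 CPM, and so was not lower where Rad21 was. Ccnb1 was at 203, 83.4, 25.2 and 52.7 CPM, moving with Rad21, and Top2a at 297, 328, 419 and 394 CPM. Mki67 was at 34.0, 25.3, 30.0 and 38.9 CPM and Cdk1 at 83.5, 74.3, 55.0 and 54.8 CPM. Meiotic genes held 48.2, 65.5, 73.6 and 73.9% of the UMIs of all 9 members in the 4 ranges. The kleisin share was 41.7, 78.2, 88.0 and 75.8%. The median UMIs per cell before thinning were 15580.0, 12828, 11090.0 and 9558, and the part of depth in these differences was not tested beyond the levels from thinned counts, which kept the order of the first 3 ranges for Rec8, Smc1b, Stag3 and Rad21.

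**Figure D5:**
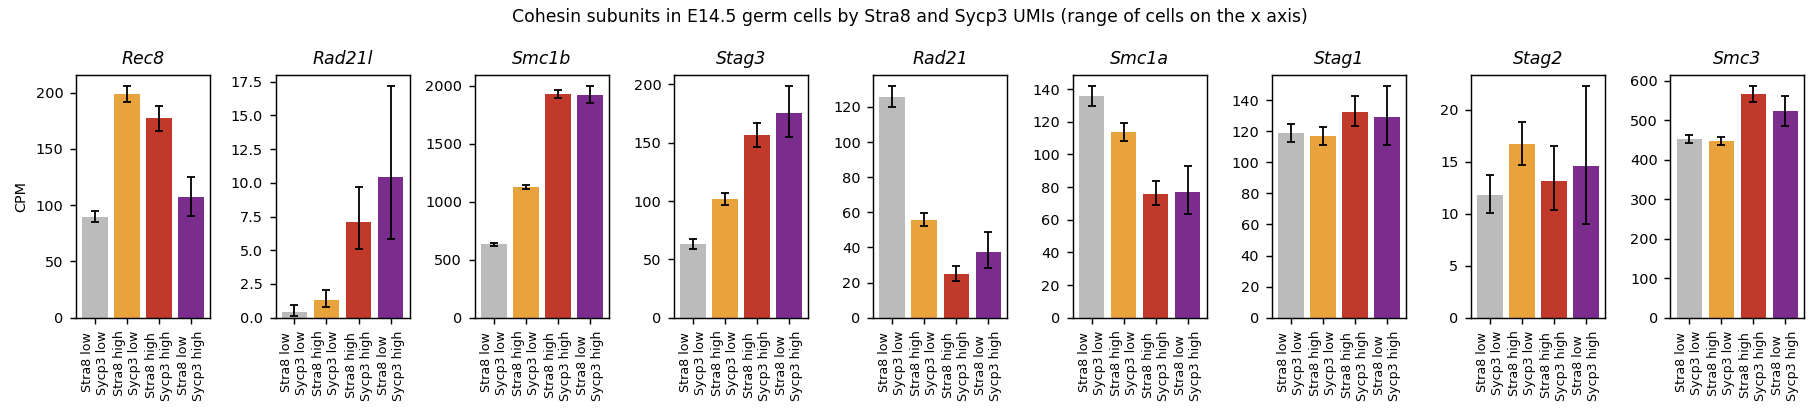
Level of each of the 9 subunits in CPM (a scale for each gene, from 0) in 4 ranges of E14.5 germ cells set by Stra8 and Sycp3 UMIs after thinning. Bars are sums over the cells of a range and whiskers 95% exact Poisson intervals. Rec8 is highest with Stra8 high and Sycp3 low, Smc1b, Stag3 and Rad21l with Sycp3 high, and Rad21 with both low.

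Genes that load, acetylate, release, protect or cut cohesin were examined as a list of 17. In the order of the ages 12, 15, 15, 16, 16, 15 and 15 passed the filter, 4, 7, 8, 9, 6, 3 and 6 were called higher in germ cells and 1, 1, 0, 2, 0, 0 and 1 lower, beside the shares of all genes given above. Esco2, an acetyltransferase that establishes cohesion, was called higher in 7 of 7 libraries, at 93.5, 326, 243, 386, 133, 130.5 and 132 CPM in germ cells and 22.7, 25.6, 12.4, 30.5, 17.7, 57.5 and 33.3 CPM in somatic cells. The separase gene Espl1, whose protein cuts kleisins, was higher in all 6 libraries where it passed, by 7.53 to 15.2-fold. Bub1, a kinase that marks centromeres for protection of cohesin, was higher in 6 of 7.

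Meikin, which is required for the meiosis-specific behaviour of kinetochores, passed at E16.5 and E18.5 only through its germ cell UMIs, at 12.4 and 13.6 CPM in germ cells. Of the shugoshins, which shield cohesin at centromeres, Sgo1 and Sgo2a were each called higher in 5 libraries, and Sgo2b passed the filter in none. Pds5a, a ring-associated regulator, passed in all 7 libraries and was never called, with folds of 0.744 to 1.54. The loader Nipbl was 3.23 (3.16 to 3.29) times as high in germ cells in the E16.5 library and was called lower at E11.5. Hdac8, the deacetylase that recycles Smc3, was called lower at E12.5 and E16.5.

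Over the 7 germ cell sums, likeness to each meiotic member was measured as Pearson's r of log2(CPM + 10) for genes of at least 20 CPM in some library, which describes 7 points that share their libraries. For Rec8 the nearest genes were Dync1i1, Msx1 and Stra8, with r of 0.99, 0.97 and 0.97, and the same 3 without the E16.5 library. The genes nearest to Smc1b were Rprd2, Stau1 and Dcaf5, of which 2 stayed without that library. Those nearest to Rad21l were Atr, Mark3 and Med12, and to Stag3 Arhgap29, Top2b and Ptpn12, all with their highest level in the E16.5 library. None of these 6 was among the nearest 3 without it, when Rad21l was nearest to Grk4, Syce3 and Cdkl2 and Stag3 to Tex19.1, Hnrnph1 and Npepl1.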

How the data were processed

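The labels describe 7 single-cell RNA libraries, 1 per age, prepared with 10x Genomics v2 chemistry. Each deposited matrix holds UMI counts, a number for every gene in every cell, which the authors made with Cell Ranger 3.1.0 on the mm10 reference for the cells it called. They were whole numbers, used as deposited.

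Cells with at least 200 genes were kept, and no doublets were removed. Germ cells, somatic cells, CPM, intervals and calls were set as the report describes, with Python 3.11.15, numpy 2.4.6, scipy 1.17.1 and pandas 2.3.3. A class with no UMI was taken at 3 UMIs for a fold. Kept cells held 492138529 UMIs, and 962 of 51564 barcodes occurred in more than 1 library. The median UMIs per cell were 12107 to 60954 in germ cells and 5704 to 10690 in somatic cells. The fold calls were tested on simulated data. Positions came from GENCODE vM21 and promoters from RefSeq (GRCm38.p6).

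The named genes were the 9 members, the regulators called most often or never, 4 division genes, landmark genes and the 3 genes nearest to each meiotic member. Members and lists were chosen with earlier results of these data known. Alternatives changed the germ gate, the somatic gate, the cell filter, the depth, the denominator, the weight of cells and the fold.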

Additional observations from a re-analysis of the deposited data

Results flagged for a closer look

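Rec8 and Rad21 had calls in opposite directions at different ages, and these differences between ages were not tested, since each age is 1 library. The ratio of germ to somatic cells for Rec8 was 2.91 at E14.5 and 0.178, 0.174, 0.0964 and 0.0711 at E16.5, E18.5, P1 and P5. Rad21 was at 2.17 times its somatic level in germ cells at E12.5 and at 0.338 and 0.386 times at E16.5 and E18.5.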

How the results depend on the processing

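Alternative values of called germ to somatic ratios were counted only where both classes held UMIs, and the filter on low counts was not applied to them. Of 326 such values, 326 kept their direction and 317 stayed past 2-fold. The 9 that did not were of Stag2, Rad21 and Rec8, with a germ gate of 1 UMI, a gate of 10 UMIs at E11.5 or thinned cells. Counts of called members rest on few genes. For the meiotic members higher in germ cells, thinned cells gave 1 at E12.5, 1 at P1 and 0 at P5, and leaving out germ cells with somatic markers gave 1 at P5. For the general members, the E11.5 count was 0 with germ gates of 1 and 10 UMIs, 0 from thinned cells, 2 at a 1.5-fold call and 0 at a 4-fold call. With a gate of 1 UMI it was 1 at E16.5 and 0 at E18.5, and from thinned cells 0 at E18.5 and 4 at P5. At P5 a 1.5-fold call gave 4, and a 4-fold call gave 1 at E12.5, 1 at P5 and 0 from E14.5 to P1. The meiotic share of cohesin UMIs in germ cells with a gate of 1 UMI, in the order of the ages, was 3.83, 22.9, 60.5, 79.7, 73.9, 74.3 and 74.1%. It was 25.5% at E12.5 with a gate of 10 UMIs. Thinned cells gave 4.76, 26.5, 65.5, 82.7, 79.2 and 83.4% at the first 5 ages and P5. Without germ cells holding somatic markers it was 63.1, 84.1, 82.4 and 82.0% from E14.5 to P1, and with each cell weighing the same 25.4, 65.2, 81.8 and 78.6% at E12.5, E14.5, P1 and P5. In the E14.5 ranges, the share with both genes low was 50.9% from thinned levels and 53.7% at a cut of 3 UMIs, with Stra8 high alone 67.1 and 68.6%, and with both high 74.8% at that cut. The causes of these shifts were not tested. Rad21l, late Rec8 and all E11.5 values are limited by low counts. The split by Gng13, the cells without germ markers and the likeness without E16.5 were chosen after seeing the data. No paired analysis was possible because each age has 1 library.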
